A study of Mus musculus with 9 samples.

Results

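The genes described here encode the subunits of the constitutive mouse proteasome and the factors that assemble, activate or inhibit it. They were taken by symbol, as every gene whose symbol is Psma, Psmb, Psmc, Psmd, Psme, Psmf or Psmg followed by digits alone, without the 3 interferon-inducible catalytic subunits Psmb8, Psmb9 and Psmb10. The rule gave 44 of the 18193 genes that had a probe set with a single symbol, and each gene was represented by its probe set with the highest mean signal. Of these, 42 were bright enough to be tested, among 12827 genes in all. Psma8, an alpha subunit known from testis, read 35.4 to 48.9 intensity units on the 9 arrays, and Psmb11, the catalytic subunit of the thymic cortex, read 55.2 to 76.5. Both lay under the signal filter of 106.5 units and were not tested. Psme2 is not analysed here, since its probe set is shared with other symbols.

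All samples were mouse pre-B cells, B lymphocyte precursors, lacking the transcription factors IRF4 and IRF8 (genotype IRF4,8 -/-), and all 3 groups carried that deletion. The cells were grown with interleukin-7 (IL-7), the cytokine on which precursors of this stage depend for growth. One group was kept in low IL-7 (0.25 ng), one had IRF4 put back in high IL-7 (5 ng), and one was kept in high IL-7 (5 ng) without IRF4, with 3 Affymetrix arrays per group. The labels disagree on the volume to which these amounts refer, so no concentration is given. The means of putting IRF4 back were not given in the sources used here, and no group was handled in the same way without receiving IRF4, so the procedure and IRF4 itself cannot be told apart. Nothing in the labels says that replicates were separate cultures or animals, so the p-values measure the spread between arrays, which may be technical.

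The proteasome is the protease that degrades ubiquitin-tagged proteins. Its barrel, the 20S core, is built of outer rings of alpha subunits, which gate the entrance, and inner rings of beta subunits, some of which cut peptide bonds. The 19S particle caps the core: ATPases in its base unfold the substrate, and the lid removes ubiquitin. Dedicated chaperones build both particles, and other activators, such as the PA28 rings and PA200, can bind the core in place of the 19S particle. In mammalian cells the subunit genes are known to be transcribed together, and NFE2L1 raises their transcription when proteasome activity is short.

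The arrays were of similar overall brightness, with median intensities of 139.7 to 151.3 over all probe sets. Of the 2 probe sets for Irf4, the dimmer read 1088, 1379 and 2543 units on the +IRF4 arrays, against 316, 270 and 257 in low IL-7 and 381, 202 and 261 in high IL-7. The brighter read 3709, 3702 and 4256 units on the +IRF4 arrays, 7926, 7902 and 7161 in low IL-7 and 5791, 4719 and 4964 in high IL-7. It was lower on the +IRF4 arrays than in high IL-7 (log2 change -0.40, SE 0.09, adjusted p = 0.0438 over all probe sets in limma). In low IL-7 it was higher than in high IL-7 (0.57, SE 0.09, adjusted p = 0.000502 over all probe sets). The labels do not say which exons the deletion removed, so these sets only partly check the labels. All 7 B precursor markers on the array passed the signal filter, and their summed signal was 57271 to 60783 in low IL-7, 41539 to 44753 on +IRF4 arrays and 39024 to 47658 in high IL-7. The 13 stromal markers summed to 3063 to 6327 in low IL-7, 3380 to 15915 on +IRF4 arrays and 5418 to 24632 in high IL-7, and Dcn, Lum and Postn were under the filter. The 8 myeloid markers summed to 2146 to 2428, 1058 to 1199 and 1282 to 1523 units in the same order, with Itgam, Cd68, Mpo and Elane under the filter. Much of that difference came from Fcer1g, at 1431, 1019 and 1204 units, 140, 148 and 158 units, and 573, 384 and 332 units. Between low and high IL-7, Itgam was also higher in low IL-7 and Csf1r and Cd68 were lower, each without overlap. Lyz2, Adgre1, Mpo and Elane overlapped. The T cell sum (5 markers) stayed within 817 to 1086 units and the erythroid and megakaryocyte sum (4 markers) within 756 to 914 units over all 9 arrays. High IL-7 replicate 1 and +IRF4 replicate 3 stood apart with low signal from the 18S ribosomal RNA control probe sets, 6.53 and 6.41 log2 units, against 7.70 to 8.49 on the other arrays.

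The comparison of low with high IL-7 asked how the proteasome genes respond when the cytokine is reduced. In low IL-7, 29 of the 42 genes (69.0%) were called lower (an adjusted p under 0.05 in limma), against 19.6% of all genes tested, and 0 were higher, against 17.8%. At an unadjusted p under 0.05 in limma, 34 were lower and 0 higher, and the share of all genes at that threshold was not computed. The change was negative in 41 of 42, the exception being Psme4, with a median of -0.42 on the log2(intensity + 16) scale, or 1.34-fold lower, beside a median of 0.02 over all genes. In 31 genes all 3 low IL-7 arrays lay below all 3 high IL-7 arrays, an order that 24.7% of all genes showed. Of the 42 genes 4, Psme3, Psmg1, Psmg2 and Psmd7, were called and at least 2-fold lower, against 518 of all 12827 genes (4.04%). The decrease was thus shared by most of the genes and under 2-fold in most of them.

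**Figure D1:**
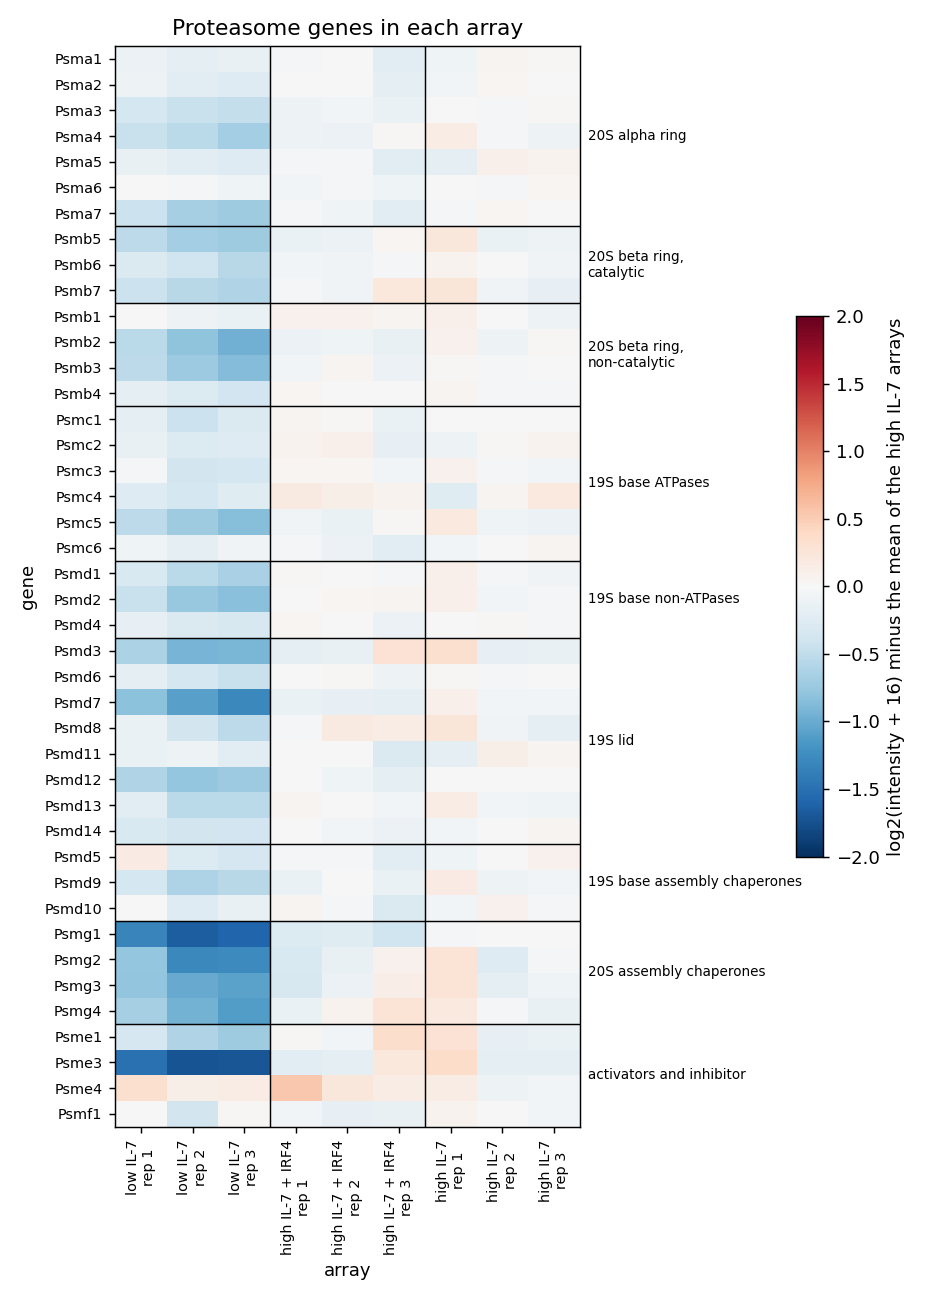
Log2(intensity + 16) of each of the 42 tested proteasome genes (rows, grouped by role) on each of the 9 arrays (columns, low IL-7, then high IL-7 with IRF4, then high IL-7), as the difference from the gene's mean in high IL-7. The low IL-7 columns are shaded for lower values in nearly all rows, with medians over the genes of -0.30, -0.44 and -0.53 on the 3 arrays, and the +IRF4 columns stay near the high IL-7 ones.

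Taken array by array, the median of the 42 genes relative to the high IL-7 mean was -0.30, -0.44 and -0.53 in low IL-7, -0.03, -0.03 and -0.10 on the +IRF4 arrays, and 0.07, -0.03 and -0.03 in high IL-7. Every low IL-7 array thus stood below every array of the other groups. Of the marker genes tested, 4 of 10 stromal ones were lower in low IL-7, against 19.6% of all genes. Of the others, 4 of 7 B precursor ones and 1 of 4 myeloid ones (Fcer1g) were higher, against 17.8% of all genes. The part of these markers in the result was not tested. Without the 3 arrays whose stromal sum passed 10000 units (high IL-7 replicates 2 and 3 and +IRF4 replicate 1), the median was -0.53. That fit has 1 high IL-7 array left, replicate 1, itself one of low 18S signal, and takes its spread from the other groups. Psma2, Psmc1, Psmd4 and Psmd14 lost their calls in it. Without both arrays of low 18S signal, 33 genes were lower and the median was -0.39, and the share of all genes lower in that fit is not given. Those 2 arrays held the 2 highest values of 11 of the 42 genes: Psma4, Psmb5, Psmb7, Psmc5, Psmd2, Psmd3, Psme1, Psme3, Psmg2, Psmg3 and Psmg4. The share of all genes with their 2 highest values on these arrays was not computed. In these bulk samples fewer cells of a type and less RNA per cell cannot be told apart.

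Since most of these genes fell together, their promoters were read from RefSeq (GRCm38.p6) as the 250 bases before the transcription start. Of the 44 genes 36 had an entry, giving 38 promoters, and Psma8, Psmb1, Psmb2, Psmb7, Psmc3, Psmd3, Psmd7 and Psmg2 were not matched. Printed here 5′ to 3′ on the strand of the gene are the promoters of the genes that changed most, Psme3 and Psmg1, and of the catalytic subunits Psmb5 and Psmb6. Capitals mark matches on either strand to CACGTG (the E-box bound by MYC and related factors), CCAAT (the NF-Y box) or TGACNNNGC (the antioxidant response element core, bound by NFE2L1 and NFE2L2 with small MAF proteins).
Psme3 promoter, chr11:101315963-101316212, + strand: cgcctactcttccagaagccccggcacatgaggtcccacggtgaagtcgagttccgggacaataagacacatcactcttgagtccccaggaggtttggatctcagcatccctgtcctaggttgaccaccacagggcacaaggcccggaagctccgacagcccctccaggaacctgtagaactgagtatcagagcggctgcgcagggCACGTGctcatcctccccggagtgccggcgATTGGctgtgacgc
Psmg1 promoter, chr16:95990961-95991210, - strand: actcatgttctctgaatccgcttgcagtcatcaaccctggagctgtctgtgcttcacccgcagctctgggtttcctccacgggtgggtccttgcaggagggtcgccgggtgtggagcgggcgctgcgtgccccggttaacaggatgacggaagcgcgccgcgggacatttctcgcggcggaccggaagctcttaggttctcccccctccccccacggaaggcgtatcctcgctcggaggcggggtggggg
Psmb5 promoter, chr14:54617996-54618245, - strand: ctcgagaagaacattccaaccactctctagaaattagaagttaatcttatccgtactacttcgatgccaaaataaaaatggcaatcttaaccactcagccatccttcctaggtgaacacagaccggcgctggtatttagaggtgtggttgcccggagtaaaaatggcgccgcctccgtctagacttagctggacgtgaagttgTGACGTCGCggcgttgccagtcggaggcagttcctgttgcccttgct
Psmb6 promoter, chr11:70525107-70525356, + strand: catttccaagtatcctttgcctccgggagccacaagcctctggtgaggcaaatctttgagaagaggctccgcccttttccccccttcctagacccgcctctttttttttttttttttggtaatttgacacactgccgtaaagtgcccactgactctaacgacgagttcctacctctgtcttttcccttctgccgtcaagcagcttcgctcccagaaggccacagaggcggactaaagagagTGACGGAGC
The Psme3 promoter held CACGTG with its first base 44 bases before the start and CCAAT on the opposite strand 14 bases before it. Psmb5 and Psmb6 held TGACNNNGC 47 and 9 bases before their starts, and none of the 3 patterns was found in the Psmg1 window. Matches of different patterns did not overlap in these windows. CACGTG was present in 3 of the 38 promoters (7.895%, those of Psma4, Psmd9 and Psme3), against 6.021% of all 32851 promoters of the same length. CCAAT was present in 13 (34.21%) against 33.85%, and TGACNNNGC in 5 (13.16%) against 10.16%. These shares lay close to those of promoters in general, and a match is a description of letters, not of a bound site.

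In the alpha ring, whose subunits form the gate and the docking face of the core, 4 of 7 tested genes were lower in low IL-7, with a median of -0.21. Beside this and the groups below, 19.6% of all genes tested were lower. Psma7 had 4135, 3479 and 3374 units in low IL-7, 5451, 5241 and 4781 on +IRF4 arrays, and 5412, 5716 and 5514 in high IL-7. The low IL-7 arrays were the lowest without overlap, and the change was -0.60 (SE 0.08, adjusted p = 0.000195). Psma4 (-0.55) and Psma3 (-0.42) were called as well. Psma2, at -0.20, lost its call without any one of high IL-7 replicates 2 and 3 and low IL-7 replicates 2 and 3, with adjusted p of 0.0888 to 0.109. Psma6 showed the smallest change among the 42 genes, with 7545, 7282 and 7067 units in low IL-7, 7232, 7370 and 7032 on +IRF4 arrays and 7493, 7309 and 7663 in high IL-7. Its groups overlapped throughout (change -0.04, SE 0.05, adjusted p = 0.568). Psma1 (-0.16, adjusted p = 0.0919) and Psma5 (-0.21, adjusted p = 0.0609) also missed the threshold. Psma1 passed it without +IRF4 replicate 3 (adjusted p = 0.042), and Psma5 passed it without that array or without high IL-7 replicate 1 (adjusted p of 0.007 to 0.0487).

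All 3 tested catalytic beta subunits were lower in low IL-7. Psmb5, which carries the chymotrypsin-like activity and is the main target of bortezomib, had 3309, 2958 and 2889 units in low IL-7, 4334, 4408 and 4867 on +IRF4 arrays, and 5576, 4362 and 4432 in high IL-7. Its change was -0.64 (SE 0.10, 1.56-fold lower, adjusted p = 0.000476), with no overlap between low and high IL-7. Psmb7, which carries the trypsin-like activity, had 4180, 3817 and 3699 units in low IL-7, 5502, 5328 and 6521 on +IRF4 arrays, and 6633, 5365 and 4990 in high IL-7. Low IL-7 again lay below both other groups (-0.53, SE 0.11, adjusted p = 0.00311). Psmb6, with the caspase-like activity, had 3569, 3307 and 2980 units in low IL-7, 4233, 4184 and 4293 on +IRF4 arrays, and 4597, 4386 and 4181 in high IL-7. The change was -0.42 (SE 0.07, adjusted p = 0.00102), and the +IRF4 and high IL-7 arrays overlapped.

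Of the beta subunits without catalytic activity, 3 of 4 were lower, with a median of -0.50. Psmb2 had 1414, 1177 and 1049 units in low IL-7, 1889, 1928 and 1855 on +IRF4 arrays, and 2195, 1908 and 2080 in high IL-7 (-0.77, SE 0.11, adjusted p = 0.00025). Psmb3 had 2325, 2025 and 1830 units, 3254, 3510 and 3104 units, and 3417, 3329 and 3354 units in the same groups (-0.71, SE 0.09, adjusted p = 0.000112). In both genes every low IL-7 array lay below the rest. Psmb4 was called at a smaller change (-0.28, SE 0.06, adjusted p = 0.00221). Psmb1 was not: 5211, 4850 and 4783 units in low IL-7, 5566, 5521 and 5434 on +IRF4 arrays and 5627, 5184 and 4880 in high IL-7 overlapped between low and high IL-7 (-0.08, SE 0.06, adjusted p = 0.37).

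The ATPases of the 19S base, which unfold the substrate and open the gate, included 2 of 6 genes lower in low IL-7, with a median of -0.26. Psmc5 had 1800, 1577 and 1432 units in low IL-7, 2473, 2349 and 2623 on +IRF4 arrays, and 2969, 2436 and 2391 in high IL-7. Low IL-7 lay below the others, and the change was -0.69 (SE 0.11, adjusted p = 0.000522). Psmc1 was lower by a smaller amount (-0.31, SE 0.08, adjusted p = 0.014), a call lost without low IL-7 replicate 2 (adjusted p = 0.0575). Psmc2 (-0.23, adjusted p = 0.0531), Psmc3 (-0.24, adjusted p = 0.0628) and Psmc4 (-0.28, adjusted p = 0.0559) lay just outside the threshold, and Psmc6 had -0.12 (adjusted p = 0.195). In the fit blocked on replicate number Psmc3 was called (adjusted p = 0.0312), and with only the low and high IL-7 arrays in that fit Psmc2 (0.0337), Psmc3 (0.0215) and Psmc4 (0.0426) all were. Without low IL-7 replicate 1 Psmc3 had an adjusted p of 0.00309, and without high IL-7 replicate 1 Psmc4 had one of 0.00365. Psmc2 passed without low IL-7 replicate 1, high IL-7 replicate 1 or +IRF4 replicate 3 (adjusted p of 0.0196 to 0.0441).

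The other base subunits were all called lower. Psmd2, a scaffold on which substrates and shuttle factors dock, had 1678, 1340 and 1271 units in low IL-7, 2264, 2341 and 2372 on +IRF4 arrays, and 2460, 2185 and 2210 in high IL-7 (-0.68, SE 0.10, adjusted p = 0.000457). Psmd1, the other large scaffold, had 2985, 2553 and 2350 units in low IL-7, 3778, 3684 and 3616 on +IRF4 arrays, and 3997, 3603 and 3544 in high IL-7 (-0.50, SE 0.09, adjusted p = 0.0012). In both, the low IL-7 arrays lay apart while the +IRF4 and high IL-7 arrays overlapped. Psmd4, a ubiquitin receptor, had 2608, 2389 and 2328 units in low IL-7, 2989, 2934 and 2691 on +IRF4 arrays, and 2895, 2970 and 2871 in high IL-7. Its change of -0.25 (SE 0.07, adjusted p = 0.0166) was not called without high IL-7 replicate 2, low IL-7 replicate 2 or low IL-7 replicate 3 (adjusted p of 0.0546 to 0.0722).

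In the lid, 7 of 8 genes were lower, with a median of -0.39. Psmd7, the partner of the lid's deubiquitinase, had 1942, 1605 and 1394 units in low IL-7, 3123, 3077 and 3006 on +IRF4 arrays, and 3685, 3331 and 3323 in high IL-7. The 3 groups did not overlap, and low IL-7 was 2.1-fold lower than high IL-7 (-1.07, SE 0.11, adjusted p = 2.35e-05). Over 23 alternative settings this change ran from -1.21 to -0.53. Psmd3, a lid scaffold subunit, had 1576, 1285 and 1299.5 units in low IL-7, 2151, 2227 and 2998 on +IRF4 arrays, and 3063, 2200 and 2217 in high IL-7 (-0.83, SE 0.16, adjusted p = 0.00198). Psmd12 (-0.70), Psmd13 (-0.43), Psmd14, the deubiquitinase itself (-0.35), and Psmd6 (-0.33) were called lower. With the mean of all its probe sets Psmd13 had -0.20 and was not called (adjusted p = 0.0761), and without the arrays of high stromal signal Psmd14 was not (adjusted p = 0.0533). Psmd8 (-0.35, adjusted p = 0.0449) overlapped between low and high IL-7 and lost its call when 1 of 6 arrays was left out: high IL-7 replicate 1 or 2, low IL-7 replicate 2 or 3, or +IRF4 replicate 2 or 3 (adjusted p of 0.0553 to 0.172). Psmd11 had -0.15 (adjusted p = 0.256).

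The 4 chaperones that build the 20S core were all lower in low IL-7, with a median of -1.03, beside -0.42 over the 42 genes. Psmg1 and Psmg2 form one complex that assembles the alpha ring, and Psmg3 and Psmg4 form another. Psmg1 had 965, 772 and 806 units in low IL-7, 2017, 2068 and 1853 on +IRF4 arrays, and 2416, 2455 and 2462 in high IL-7. All 3 groups lay apart, and low IL-7 was 2.86-fold lower than high IL-7 (-1.52, SE 0.09, adjusted p = 1.2e-06). Psmg2 had 1340, 933 and 937 units in low IL-7, 1849, 2059 and 2441 on +IRF4 arrays, and 2784, 1924 and 2250 in high IL-7 (-1.11, SE 0.17, 2.16-fold lower, adjusted p = 0.000477). Psmg3 had 945, 809 and 781 units, 1316, 1524 and 1812 units, and 2000, 1455 and 1547 units in the same groups (-0.96, SE 0.15, adjusted p = 0.000446). For both, low IL-7 was below every other array and the remaining groups overlapped. Psmg4 had 531, 435 and 384 units in low IL-7, 775, 893 and 1032 on +IRF4 arrays, and 976, 828 and 762 in high IL-7, with the same order (-0.91, SE 0.15, adjusted p = 0.000629). Over 23 alternative settings the change ran from -1.61 to -1.45 for Psmg1 and from -1.39 to -0.66 for Psmg2. It ran from -1.23 to -0.49 for Psmg3 and from -1.10 to -0.80 for Psmg4.

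Of the 3 chaperones of the 19S base 1 was lower, with a median of -0.15. Psmd9 had 447, 369 and 388 units in low IL-7, 524, 571 and 522 on +IRF4 arrays, and 647, 533 and 551 in high IL-7 (-0.51, SE 0.11, adjusted p = 0.00336), with low IL-7 below the others. Psmd10 (gankyrin) had 725, 609 and 656 units in low IL-7, 760, 721 and 597 on +IRF4 arrays, and 702, 775 and 714 in high IL-7. Psmd5 had 1925, 1421 and 1362 units in low IL-7, 1696, 1676 and 1467 on +IRF4 arrays, and 1620, 1723 and 1830 in high IL-7. Both genes overlapped between the groups, at -0.14 (SE 0.11, adjusted p = 0.371) for Psmd10 and -0.15 (SE 0.13, adjusted p = 0.403) for Psmd5. Low IL-7 replicate 1 held the highest Psmd5 value of the 9 arrays, and without it Psmd5 was called lower (adjusted p = 0.0309).

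Of the 4 tested activators and inhibitors 2 were lower, with a median of -0.33. Psme3, the nuclear PA28 gamma activator, gave the largest decrease of the 42 genes: 656, 558 and 562 units in low IL-7, 1616, 1635 and 2165 on +IRF4 arrays, and 2436, 1656 and 1639 in high IL-7. Low IL-7 lay below both other groups, which overlapped, and the change was -1.64 (SE 0.17, 3.12-fold lower, adjusted p = 2.37e-05). Psme1, the interferon-inducible PA28 alpha, had 2691, 2252 and 2082 units in low IL-7, 3487, 3284 and 4371 on +IRF4 arrays, and 4163, 3056 and 3130 in high IL-7 (-0.55, SE 0.15, adjusted p = 0.0124). Low IL-7 was the lowest group without overlap, and the call was lost without low IL-7 replicate 3 (adjusted p = 0.0564). Psme4, which encodes PA200, had 3798, 3281 and 3376 units in low IL-7, 4405, 3570 and 3374 on +IRF4 arrays, and 3382, 2842 and 2907 in high IL-7. It alone had a positive value (0.20, SE 0.11, adjusted p = 0.194), the groups overlapped, and in the fit blocked on replicate number it was called higher (adjusted p = 0.0388). Psmf1, the inhibitor PI31, had 967, 747 and 984 units in low IL-7, 927, 862 and 869 on +IRF4 arrays, and 1008, 963 and 925 in high IL-7 (-0.11, SE 0.11, adjusted p = 0.486), with overlapping groups.

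**Figure D2:**
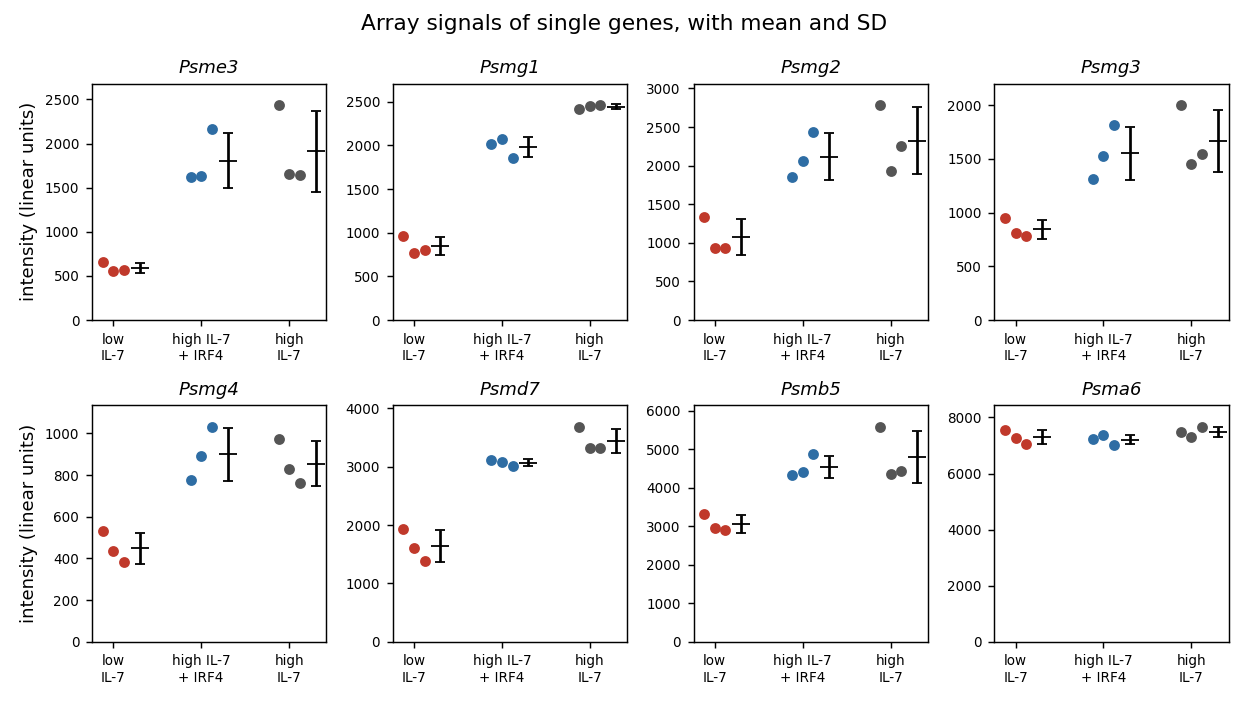
Intensity of single proteasome genes in low IL-7, high IL-7 with IRF4, and high IL-7, on a linear axis from 0. Points are the 3 arrays of each group and the black bar beside them is the mean with its SD. Psme3 and Psmg1 stand at 558 to 965 units in low IL-7 and at 1616 units or more on every other array, while Psma6 lies between 7032 and 7663 on all 9.

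No proteasome gene passed the test when IRF4 was put back in high IL-7. Against high IL-7 alone, 0 of 42 genes were higher and 0 lower at an adjusted p under 0.05, where 1.9% of all genes were higher and 0.99% lower. At an unadjusted p under 0.05 in limma, Psme4 was higher and Psmg1 lower. The share of all genes at that threshold was not computed, and neither gene passed after adjustment. The median change was -0.06, beside -0.01 over all genes, and single values ran from -0.30 to 0.31, with a lowest adjusted p of 0.143. The 95% confidence interval lay within 0.5 log2 units on either side of 0 for 39 genes, so for these a larger change in either direction fell outside the interval. For Psme4, Psmg1 and Psmg2 the interval reached further. A p over the threshold does not show that the groups are alike.

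Psmg1 (2017, 2068 and 1853 units with IRF4, against 2416, 2455 and 2462 in high IL-7) had the largest negative value, -0.30 (SE 0.09, adjusted p = 0.143), with no overlap. In 4 genes, Psma3, Psmd7, Psmd12 and Psmg1, all 3 +IRF4 arrays lay below all 3 high IL-7 arrays, an order that 11% of all genes showed. Psme4 had the largest positive value, 0.31 (SE 0.11, adjusted p = 0.207), with 1 overlapping pair of arrays, and was called higher when replicates were blocked by number (adjusted p = 0.0397). The +IRF4 arrays did not deviate together with the arrays of the same number in either other group.

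**Figure D3:**
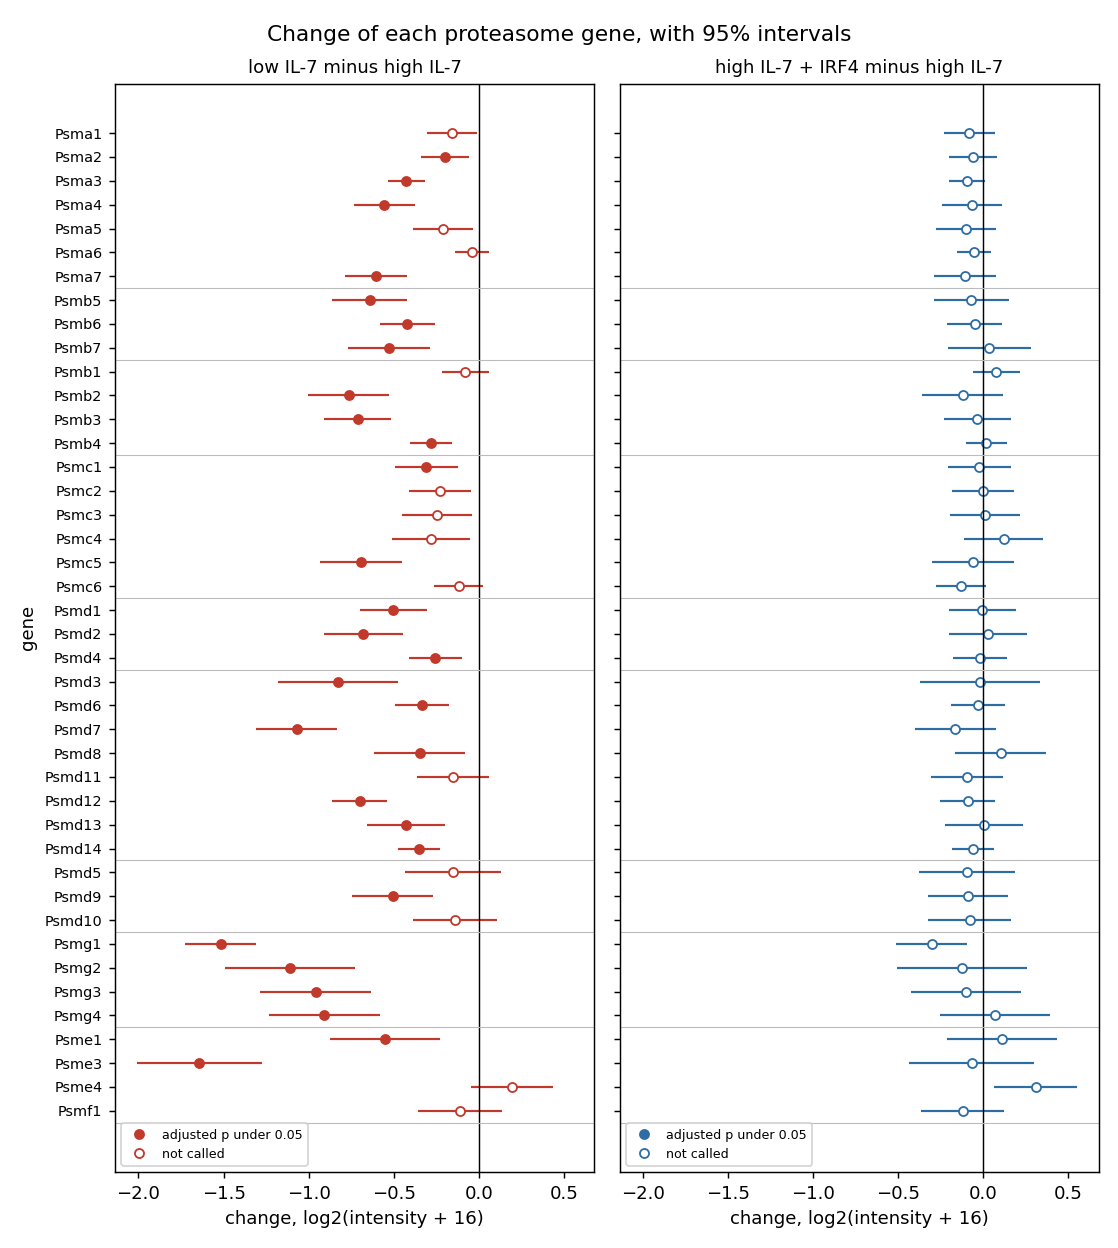
Log2 change of each of the 42 genes (rows, grouped by role) with its 95% confidence interval, in low IL-7 minus high IL-7 (left) and in high IL-7 with IRF4 minus high IL-7 (right). Filled points passed an adjusted p of 0.05: 29 on the left, all below 0, and 0 on the right, where the points lie between -0.30 and 0.31.

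Setting the +IRF4 arrays against low IL-7 compares groups that differ in both IL-7 and IRF4, and it shares the low IL-7 arrays with the first comparison, so its values are not independent of those above. Here 29 of 42 genes were higher with IRF4 in high IL-7, against 18.6% of all genes, and 0 were lower, against 17.7%. At an unadjusted p under 0.05 in limma 32 were higher and 0 lower, with no share of all genes computed at that threshold. The median was 0.41, beside 0.00 over all genes. All 3 +IRF4 arrays lay above all 3 low IL-7 arrays in 30 genes, as they did in 24.5% of all genes. The largest differences were those of Psme3 (1.57, SE 0.17, 2.98-fold, adjusted p = 4.21e-05) and Psmg1 (1.21, SE 0.09, 2.32-fold, adjusted p = 6.17e-06). Psmg2 (0.98), Psmg4 (0.98), Psmd7 (0.90) and Psmg3 (0.86) followed. Psmc4 was called here (0.40, adjusted p = 0.0117), and Psma2 was not (0.14, adjusted p = 0.114). The calls of Psmc1, Psmd4 and Psmd8 were each lost without single +IRF4 or low IL-7 arrays. For Psmc1 and Psmd4 these were +IRF4 replicates 1 and 2 and low IL-7 replicates 2 and 3 (adjusted p of 0.0565 to 0.0812 and 0.076 to 0.105), and for Psmd8 +IRF4 replicate 2 and low IL-7 replicate 3 (0.0509 to 0.0655). Calls were gained without single arrays by Psma2 (+IRF4 replicate 3, adjusted p = 0.0256), Psmc3 (low IL-7 replicate 1, 0.00293), Psmb1 (replicate 1 of either IL-7 group, 0.045 to 0.047) and Psmc2 (either of those or +IRF4 replicate 3, 0.00981 to 0.0483). With replicates blocked by number, Psmb1 (adjusted p = 0.0464) and Psmc3 (0.0277) were called, and with only the compared groups in that fit Psmc1 (0.0554) and Psmd4 (0.067) were not. Beside these, 5 of 7 B precursor markers and 1 of 4 myeloid ones (Fcer1g) were lower with IRF4 than in low IL-7, against 17.7% of all genes. Of the stromal ones 0 of 10 passed the test. The part of these markers in the result was not tested.

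Changes varied with the brightness of the probe set, a property of the probes as well as of the RNA. Among the 21 genes with the brighter probe sets (mean 3326 to 7332 units) the median change in low IL-7 was -0.28 and 12 were called lower. Among the 21 with the dimmer sets (506 to 3168 units) it was -0.69 and 17 were called lower, beside 19.6% of all genes tested. Across the 42 genes brightness and change had a Spearman rho of 0.43 and a Pearson r of 0.38, given as a description since all points share the same 9 arrays. In 14 genes at least 1 further probe set averaged 1000 units or more, giving 18 dimmer sets, of which 13 had a lower value than the brightest set of the same gene. With p-values adjusted over all probe sets, 11 of the 18 dimmer sets were called lower, against the brightest set in 7 of the 14 genes. The share of all probe sets called lower was not computed.

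Some genes that missed the threshold were called lower by a further probe set. For Psma5 the second set gave -0.55 (adjusted p = 0.000181), beside -0.21 for the brightest. For Psmc4 it gave -0.62 (adjusted p = 0.00268), beside -0.28, and for Psmc2 -0.41 (adjusted p = 0.00335), beside -0.23. For Psmd11 further sets gave -0.51, -0.38 and -0.02, beside -0.15. Psmb4, called by its brightest set, had -0.16 (adjusted p = 0.327) in its second. The 3 sets of Psma6 that averaged over 1000 units had -0.04, -0.09 and -0.03, and the second set of Psme3 gave -1.98.

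Genes that work with the proteasome were read from lists by role. Of 6 other components and partners tested, 3 were lower in low IL-7 and 0 higher, with a median of -0.26. Of all genes tested, 19.6% were lower and 17.8% higher. Usp14, a deubiquitinase of the 19S base, had 1812, 1478 and 1482 units in low IL-7, 2520, 2361 and 2601 on +IRF4 arrays, and 3180, 2783 and 2774 in high IL-7 (-0.87, adjusted p = 4.91e-05). Uchl5, a deubiquitinase of the base (-0.67, adjusted p = 2.27e-05), and Txnl1, a thioredoxin-like protein bound to the 19S particle (-0.33, adjusted p = 0.000672), were lower too. Pomp, the maturation factor of the 20S core, had -0.18 (adjusted p = 0.109). Of the 3 interferon-inducible catalytic subunits, Psmb10 was lower (-0.33, adjusted p = 0.0442), Psmb8 had -0.33 (adjusted p = 0.124) and Psmb9 had 0.20 (adjusted p = 0.498).

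Among 6 tested genes for transcription factors of the proteasome genes and their activators, 2 were lower in low IL-7 and 0 higher. For this list and the next, the shares of all genes were again 19.6% lower and 17.8% higher. Nfe2l1 had 259, 252 and 245 units in low IL-7, 380, 349 and 347 on +IRF4 arrays, and 500.2, 391 and 353 in high IL-7 (-0.67, SE 0.12, adjusted p = 0.00111). Its low IL-7 arrays lay below all others. Mafg, a small MAF partner, was lower (-0.97, adjusted p = 0.0036), but its second probe set, of similar brightness, had -0.22 (adjusted p = 0.259 over all probe sets). Nfe2l2 had 0.24 (adjusted p = 0.0999), Maff had -0.09 (adjusted p = 0.419), and Nfe2l3 was under the signal filter. Of 7 shuttle factors and genes of the p97 unfoldase, 3 were lower and 0 higher: Ubqln4 (-0.79, adjusted p = 0.00971), Rad23b (-0.50, adjusted p = 0.00478) and Vcp (-0.24, adjusted p = 0.0329), while Nploc4 had -0.24 (adjusted p = 0.0597). Of the genes that supply ubiquitin only Uba6, an activating enzyme, was tested (-0.07, adjusted p = 0.591). None of these genes was called with IRF4 against high IL-7, where 1.9% of all genes were higher and 0.99% lower.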

How the data were processed

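RNA of 9 samples was labelled with biotin and hybridised to Affymetrix arrays, per the labels' protocols. The deposited tables hold the authors' probe set intensity values on a linear scale, from 0 to 24762, and their summarisation and scaling were not given in the sources used here. Precision is limited by the 3 arrays per group, and no detection calls were used. Of 45101 probe sets, 34945 had 1 gene symbol in the platform annotation, 932 several and 9160 none, and 64 were control probe sets.

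Values were taken as log2(intensity + 16), and the added constant shrinks the fold changes of dim genes. Probe sets whose mean log2(intensity + 16) fell under the 40th percentile (106.5 units when turned back to intensity) were left out. Each gene was read from its brightest remaining probe set. A linear model of group means over all 9 arrays was fitted with limma 3.58.1 (R 4.3.3) with empirical Bayes moderation and a variance trend, and two-sided p-values were adjusted by Benjamini-Hochberg over 12827 genes. A gene was called at an adjusted p under 0.05. Python 3.11.15 and matplotlib 3.10.9 were used for figures and promoters. The fit was also run on simulated data with independent noise on each array, which leave out any deviation shared between arrays.

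The proteasome genes, the related lists and the marker lists were chosen with earlier results of these data known. Genes given in full were the largest changes, the catalytic subunits and all genes of small groups. Of each related list the genes of lowest p were named, up to 4. Lists were read out of the fit over all genes, and no test of a list was run.

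Samples of the same replicate number deviated together between low and high IL-7 (correlations of deviations from group means of 0.54, 0.38 and 0.28), and not between the +IRF4 arrays and either other group (-0.37 to 0.00). Arrays of different number were not compared in this way, so the correlations do not show that the numbers, taken from the labels, mark pairs. The changes, p-values and counts reported come from the fit of group means, which does not use the replicate numbers. The fit with the replicate number as a block is given where it changed a call, over all 9 arrays or over the groups compared. No gene called lower in low IL-7 than in high IL-7 lost its call in either form. Other alternatives were the pseudocount, the signal filter, quantile or median scaling, array weights, no variance trend, the mean of all probe sets, fits of only the groups compared, and leaving out each array.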

Additional observations from a re-analysis of the deposited data

How the results depend on the processing

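The number of genes lower in low IL-7 stayed between 25 and 39 over 24 alternatives (29 as reported), between 25 and 32 when single arrays were left out, and the median change between -0.53 and -0.35 (-0.47 to -0.36 with single arrays left out). Psma6, Psmc6 and Psmd10 were called lower in low IL-7 with array weights and in no other alternative. Of the 29 genes, 21 kept the call in each of the 23 alternatives run gene by gene. Apart from array weights with IRF4 against high IL-7, the share of all genes called in each alternative is not given. The counts in this section thus do not show whether the proteasome genes moved apart from other genes. The number higher in low IL-7, 0 as reported, was 1 with quantile normalization, with array weights, with the replicate block and with the replicate block over only the groups compared, the gene being Psme4 in each. The median moved to -0.53 without the arrays of high stromal signal, a fit with 1 high IL-7 array left and an alternative chosen, like the block over only the groups compared and the omission of the low 18S arrays, after seeing the data. With IRF4 against high IL-7, quantile normalization gave 1 lower gene (Psmg1, adjusted p = 0.0472), the replicate block gave 1 higher, and array weights gave 3 higher and 2 lower, while also raising the share of all genes called to 12.4% higher and 13.1% lower. With IRF4 against low IL-7, between 26 and 37 genes were higher (26 to 32 with single arrays left out), and the median was 0.49 with array weights and 0.31 with the mean of all probe sets. That mean also turned the sign of Psmd9 (0.022 in low IL-7 against high IL-7, and -0.14 with IRF4 against low IL-7) and Psmd13 (-0.011 with IRF4 against low IL-7). It also ended the calls of Psmd13 in low IL-7 and, with IRF4 against low IL-7, of Psma3 (0.08) and Psmd4 (0.17). The replicate block changed the low IL-7 calls of Psmc3 and Psme4, and over only the groups compared also those of Psmc2 and Psmc4. The cause of these shifts was not tested.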

Other observations

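Dim probe sets of 2 genes went against the brightest set of the same gene. For Psmd13, a set of mean 172 units was higher in low IL-7 than in high IL-7 (0.37, SE 0.12, adjusted p = 0.0423 over all probe sets) and lower with IRF4 than in high IL-7 (-0.84, SE 0.12, adjusted p = 0.00393), where the brightest set had -0.43 and 0.00. For Psmd9, a set of mean 122 units was higher in low IL-7 (0.56, SE 0.12, adjusted p = 0.00428), where the brightest set had -0.51. These probe sets were chosen after their values were seen, and the cause of the disagreement was not tested.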
